A study of Mus musculus with 12 samples.

Results

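The comparison described here set 3 libraries of aged mouse haematopoietic stem and progenitor cells cultured with uridine against 3 libraries of uncultured cells of the same kind from young mice, 6 of the 12 bulk RNA-seq libraries of the study. Members were chosen by library label, and all genes were compared. Of 54532 gene identifiers in the count table, 16675 passed the filter on low counts. The question was which differences from young cells were still present in aged cells after culture with uridine. The other 6 libraries, 3 of uncultured aged cells and 3 of aged cells cultured with vehicle, entered the same filter and model. They add to the estimate of spread behind each p-value. They also give levels, the set of age differences, vehicle minus young values and a weighting of group means. All 12 libraries came from bone marrow of wild-type mice. No age in weeks, sort markers, culture time, uridine dose or pooling of animals was given in the sources used here. The genotype label counts upward from C57BL/6 across the samples (the uridine libraries carry 7 to 9 and the young libraries 10 to 12), so the strain is uncertain. The uridine and young groups differ in age, in culture and in uridine, and the effects of these 3 cannot be told apart in this contrast. The labels do not say whether replicate libraries are separate animals or cultures, so the spread that p-values rest on may be technical.

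Haematopoietic stem and progenitor cells are the rare marrow cells from which all blood lineages arise. Stem cells divide seldom and hold long-term repopulating capacity, whereas progenitors divide often and are already biased towards myeloid, erythroid, megakaryocytic or lymphoid fates. With age the stem cell pool of the mouse expands, shifts towards platelet and myeloid output and loses lymphoid output. Uridine is the nucleoside of uracil: cells take it up through nucleoside transporters and convert it by uridine kinases into UTP, CTP and UDP-sugars for RNA, phospholipid and glycan synthesis.

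Genes that define the progenitor population were present in both groups. Kit, the receptor for stem cell factor, had 252, 259 and 251 CPM (counts relative to the scaled library size) in the 3 young libraries and 275, 269.7 and 277 CPM in the 3 uridine libraries. Cd34, a sialomucin of progenitors, had 286, 280.3 and 279 CPM in the young and 358, 339.7 and 348 CPM in the uridine libraries. Gata2, a transcription factor required in stem and progenitor cells, had 145, 146 and 146 CPM in young and 139, 137 and 145 CPM in uridine libraries. The uridine libraries lay just below the young ones, and the difference was not called, though 3 alternatives call it. Mpo, the myeloperoxidase of granulocyte-monocyte progenitors, had 6096, 6040.5 and 5924 CPM in young and 3557, 3526 and 3550.0 CPM in uridine libraries, a log2 fold change (uridine minus young) of -0.76. Ly6a, Flt3 and Meis1, also markers of these cells, had log2 changes of 3.86, -0.60 and 0.37, so the markers did not all match between groups. Transcripts of mature blood cells and stroma were also present in both groups, and their levels are given with each result they touch.

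Library totals ran from 16785065 to 19025802 counts over the study. Immunoglobulin genes with Jchain took 0.543% of counts in young and 0.606% in uridine libraries, 0.923% in vehicle cultures and 21.8% in uncultured aged cells. Replicates of 1 group differed by more than counting noise in each of the 6 pairs (chi-square per degree of freedom 2.48 to 2.72), so none was a copy of another.

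The position of the uridine libraries between 2 other groups has to be given before any single gene, because it touches every difference below. A weighting of the 3 other group means was fitted to the mean uridine CPM by non-negative least squares over 11853 genes with at least 5 CPM in some group, a measure chosen after the data were seen. Each gene was first scaled by about the inverse of its mean level over those 3 groups, so that abundant genes would not dominate the fit. The fitted weights were 38.3% of the young level, 61.5% of the vehicle level and 0% of the uncultured aged level. They were 38.3, 38.1 and 38.4% of young and 61.5, 61.4 and 61.6% of vehicle in the 3 uridine libraries taken singly. The uridine mean lay within 20% of this weighted sum for 11193 of the 11853 genes (94.4%), against 59.4% of genes within 20% of the young mean alone and 72.2% within 20% of the vehicle mean alone.

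Similar proportions appeared at the extremes. For 141 genes whose young level was at least 10 times the vehicle level, the uridine level was a median 35.1% of the young level (quartiles 33.0 and 38.4%), with medians of 35.5, 34.8 and 35.6% in the single libraries. For 174 genes whose vehicle level was at least 10 times the young level, it was a median 60.3% of the vehicle level (quartiles 56.0 and 66.7%). For 270 genes at least 10 times higher in uncultured aged cells than in both young and vehicle libraries, the uridine level was a median 2.55% of the aged level. Among members of the lists that met this first rule (a young level 10 or more times the vehicle level), 15 of 25 erythroid genes stood at a median 36.0% of young, 9 of 18 mature neutrophil genes at 35.7%, 10 of 19 B-lineage genes at 34.9% and 8 of 25 immediate early genes at 34.6%. The 3 basophil, mast cell and eosinophil genes so chosen stood at 32.8% and the 5 stroma and endothelium genes at 28.5%. What sets these proportions was not tested. Whether the uridine RNA, libraries or counts share material with the young libraries cannot be told from the files, and such sharing would change what each uridine minus young value below measures. In bulk RNA, fewer cells of a type and less RNA per cell cannot be told apart.

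At an adjusted p under 0.05, 4361 genes were higher in uridine-cultured aged than in young cells (26.2% of genes tested) and 3879 were lower (23.3%), together 49.4%. Vehicle cultures set against young cells had 33.3% of genes higher and 32.5% lower. With a change of at least 1 on the log2 scale, 1352 were higher (8.11%) and 859 lower (5.15%). The 3 uridine libraries did not overlap the 3 young ones for 9539 genes (57.2%). For 7380 genes (44.3%) the 95% interval of the fold change lay inside -0.5 to 0.5 on the log2 scale, and such genes are called close to young here. The median over all genes tested was -0.00395 on the log2 scale, with quartiles of -0.27 and 0.32. Unless another contrast is named, the log2 change of a gene or the median of a list is the log2 fold change of uridine minus young.

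The differences were lopsided in size. Among 6115 protein-coding genes called with a mean of at least 5 CPM, 213 were higher by more than 2 on the log2 scale and 35 by more than 4, whereas 1, Sparc, was lower by more than 2. Sparc, which encodes a matrix glycoprotein of bone (ENSMUSG00000018593, chr11:55394500-55423183, minus strand, with all coordinates of genes given on GRCm38), had 42.3, 43.9 and 40.2 CPM in the young and 10.5, 10.4 and 10.5 CPM in the uridine libraries, a log2 fold change of -2.01 (SE 0.124, adjusted p = 2.68e-16). It was nearly absent from vehicle cultures, at 0.0526, 0.165 and 0.113 CPM. At the other end, H2-M2, a non-classical class I gene (ENSMUSG00000016283, chr17:37480851-37483552, minus strand), had 0 counts in all young libraries and 13.9, 14.5 and 17.9 CPM in the uridine libraries, at least 291-fold higher when 3 counts over the young group are taken as the limit. Apol9a, an interferon-responsive apolipoprotein L gene, was likewise at 0 in the young libraries and at least 221-fold higher, though reads of its near copy Apol9b make its count uncertain.

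**Figure D1:**
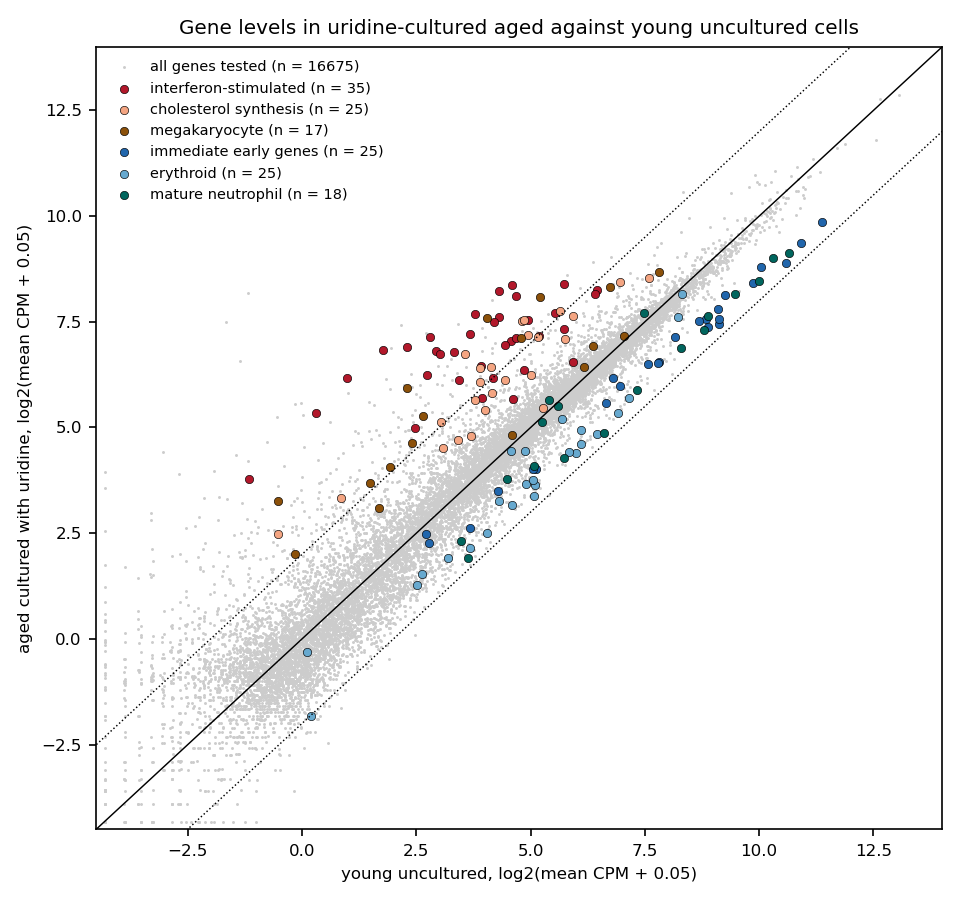
Mean level of each of 16675 genes in young uncultured cells (x axis) and uridine-cultured aged cells (y axis), as log2(mean CPM + 0.05), 3 libraries per group. Coloured points are members of 6 gene lists, the solid line marks equal levels and dotted lines a difference of 2 on the log2 scale. Points reach far above the upper dotted line, up to H2-M2, while well-expressed points below the diagonal stop near the lower one.

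The plot of uridine against young levels shows this shape: interferon, cholesterol and megakaryocyte genes spread upward by very different amounts, whereas 23 of 25 erythroid, 14 of 18 mature neutrophil and 24 of 25 immediate early genes were lower. The neutrophil genes Mmp8 and Csf3r were higher, at log2 changes of 0.25 and 0.22.

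To ask which age differences remained, genes were first called between uncultured aged and young cells, which gave 5535 genes higher (33.2%) and 5354 lower (32.1%) with age. This contrast and the uridine contrast share the young libraries, so the 2 are not independent and only the count set by the question is given. Of the 5535 genes higher with age, 1730 (31.3%) were also higher in the uridine libraries than in the young, 1139 were lower, and 2666 were not called. Of the 5354 lower with age, 1904 (35.6%) were also lower, 1309 were higher, and 2141 were not called. Together 3634 of 10889 age differences (33.4%) remained in direction. Of all genes tested, 26.2% were higher and 23.3% lower in uridine than in young libraries. The uridine level was close to young for 2362 of the genes higher with age (42.7%) and 3064 of those lower with age (57.2%), beside 44.3% of all genes tested. A gene can be both called and close to young, so these counts overlap with the counts of differences that remained.

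Genes of plasma cells and B cells led those higher with age, and in the uridine libraries they stood nearer to young. Jchain, the joining chain of secreted IgM and IgA, had 303, 303 and 303 CPM in young, 23598, 23350.3 and 23474 CPM in uncultured aged and 450.2, 436 and 431 CPM in uridine libraries. Uridine libraries stood just above the young ones without overlap (log2 fold change 0.54, adjusted p = 5.69e-26), against an aged minus young change of 6.28. Prdm1, which encodes the plasma cell regulator Blimp-1, had a log2 fold change of 0.68 in uridine and 4.90 in uncultured aged cells. Nuggc, a gene of germinal centre B cells, had log2 changes of 1.51 and 6.50 in the same order. Cacna1h, a T-type calcium channel gene with an aged minus young change of 5.11, had a log2 change of -0.18 in the uridine libraries. Derl3, a factor of endoplasmic reticulum-associated degradation that secretory cells use, had log2 changes of 4.89 with age and -0.15 in uridine. Vehicle cultures, too, stood nearer to young than uncultured aged cells did. Log2 fold changes of vehicle against young were 1.37 for Jchain, 0.95 for Prdm1, 2.03 for Nuggc, 0.18 for Cacna1h and 0.15 for Derl3.

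Some genes that were higher with age had large differences from young in the uridine libraries as well. Gpnmb, a lysosomal glycoprotein of macrophages (ENSMUSG00000029816, chr6:49036546-49070929, plus strand), had 0.300, 0.438 and 0.437 CPM in young, 13.4, 14.1 and 15.2 CPM in aged and 297, 287 and 289.5 CPM in uridine libraries. The 3 groups were separate, with uridine highest of them and vehicle cultures, at 584, 586 and 559.7 CPM, higher still. Plscr2, a phospholipid scramblase gene, had log2 fold changes against young of 4.68 in aged and 7.04 in uridine libraries. Bmpr1a, a type I receptor for bone morphogenetic proteins, had log2 changes of 4.69 and 3.52. Spag6 had log2 changes of 7.33 and 2.21, with its call in uridine lost when young replicate 1 was left out (adjusted p = 0.0561). Prkcz, an atypical protein kinase C gene, had log2 changes of 5.53 and 1.06, but its call was lost under 9 alternatives.

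Among genes lower with age whose difference remained, those with the largest age difference included genes of stroma, neutrophils, eosinophils and early B cells. Col1a1, the main chain of type I collagen (ENSMUSG00000001506, chr11:94936224-94953042, plus strand), had 270.3, 281 and 264 CPM in young, 0.732, 1.11 and 1.03 CPM in aged and 75.8, 79.7 and 74.5 CPM in uridine libraries. The uridine libraries lay between the other groups without overlap (log2 fold change -1.83, SE 0.0414, adjusted p = 1.23e-29). Igll1, a surrogate light chain gene of pro-B cells, had log2 changes of -4.78 with age and -1.61 in uridine, and Retnlg, a resistin-like gene of neutrophils, had log2 changes of -5.36 and -1.46. The uridine changes of the 10 such genes with the largest age difference were alike in size, from -1.26 for Enpep to -1.83 for Col1a1, whereas their age changes ran from -4.68 for Ear6 to -8.14. In vehicle cultures Col1a1 was at 0.263, 0.275 and 0.169 CPM.

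A further set of genes lower with age stood close to young in the uridine libraries, whether or not a difference was called. In the list of inflammatory mediators these were 2 of 20 measured genes, Tnf and Il1b, beside 44.3% of all genes close to young. Il1b, the interleukin-1 beta gene, had 20.9, 20.3 and 21.5 CPM in young, 0.266, 1.11 and 1.24 CPM in aged and 22.6, 22.5 and 23.2 CPM in uridine libraries, a difference that was not called. Tnf had log2 fold changes of -2.50 with age and -0.26 in uridine. Its small uridine difference was called (adjusted p = 0.000533), so Tnf also counts among the differences that remained. Mmp8, a neutrophil collagenase gene, had log2 changes of -4.32 and 0.25, and Cd33, a myeloid sialic acid receptor gene, had log2 changes of -2.46 and 0.0120. Vehicle cultures were also near the young level for these genes, with log2 fold changes against young of 0.41 for Il1b, -0.13 for Tnf, 0.52 for Mmp8 and 0.38 for Cd33.

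**Figure D2:**
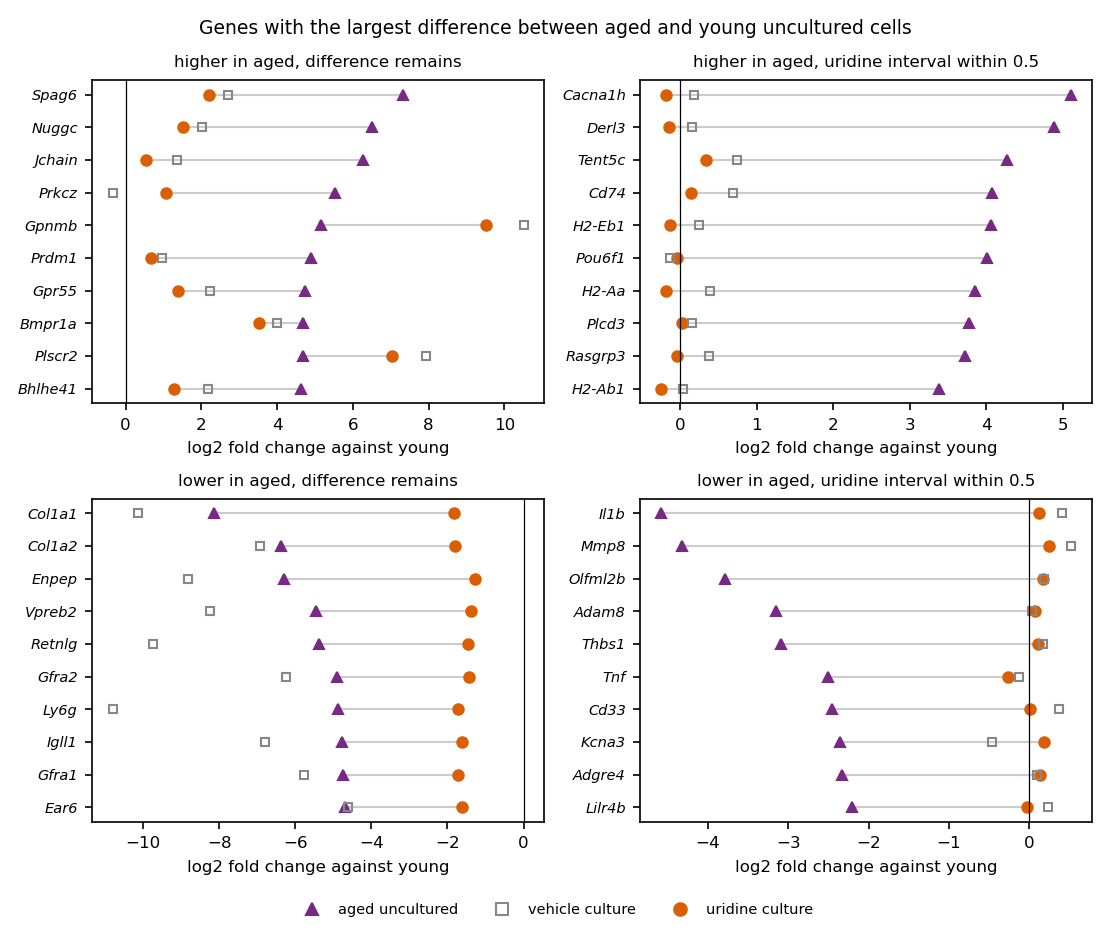
Log2 fold change against young uncultured cells for 40 protein-coding genes, the 10 with the largest age difference in each class. Left panels hold genes whose difference remained in uridine libraries and right panels genes close to young. The classes overlap: Cd74, Tent5c and Tnf on the right were also called in the direction of age. Uridine positions are therefore partly set by the choice of genes. Triangles are uncultured aged, open squares vehicle-cultured and filled circles uridine-cultured cells, each a difference of 3 libraries from the 3 young ones. In the lower left panel all 10 uridine values sit between -1.83 and -1.26 while vehicle values reach beyond -10.

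The plot of age genes shows that uridine values lay on the same side as vehicle values, and nearer to young, for 9 of the 10 genes in the upper left panel and all 10 in the lower left panel; Prkcz was the exception.

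The strongest rise by gene group was in the interferon-stimulated genes, the antiviral programme that cells switch on through the type I interferon receptor. All 35 measured members were higher in uridine than in young libraries, 34 of them by at least 1 on the log2 scale, with a median of 2.70 beside -0.00395 over all genes. Isg15, a ubiquitin-like modifier (ENSMUSG00000035692, chr4:156199424-156200818, minus strand), had 5.05, 4.43 and 5.03 CPM in young and 117, 120.2 and 124 CPM in uridine libraries. That is a log2 fold change of 4.63 (SE 0.0633, adjusted p = 1.79e-36), with a wide gap between the groups. Ifit1, which binds foreign RNA caps (ENSMUSG00000034459, chr19:34640871-34650009, plus strand), had 2.95, 4.27 and 2.90 CPM in young and 119, 108 and 113 CPM in uridine libraries (log2 fold change 5.07, SE 0.0801, adjusted p = 1.69e-34). Ifi44 had 7.05, 7.72 and 5.85 CPM in young and 139, 142 and 139 CPM in uridine libraries. Irf9, chosen after its values were seen as the member with the smallest change, had a log2 fold change of 0.61.

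Uncultured aged cells did not show this rise. In aged minus young, 25 of the 35 genes were lower and 5 higher, with a median of -0.68. Isg15 was at 3.06, 2.99 and 2.55 CPM in the uncultured aged libraries, below every young library. Vehicle cultures were further from young than uridine cultures, with a median of 3.38, and Isg15 there was at 217, 221 and 219 CPM. The summed level of the 35 genes was 814 to 834 CPM in young, 5073 to 5119 CPM in uridine and 7935 to 7955 CPM in vehicle libraries.

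Promoters of 2 of these genes are shown because all members of the list were higher, and the 2 windows hold a known element. The windows run from 250 bases before to 50 bases after the RefSeq start (GRCm38.p6), and capitals mark matches to the interferon-stimulated response element, taken as TTTC, any 2 bases and TTTC, searched on both strands. Isg15 lies at chr4:156200769-156201068, minus strand, with 3 overlapping matches that form 1 run of capitals, and Ifit1 at chr19:34640639-34640938, plus strand, with 2 matches.
Isg15: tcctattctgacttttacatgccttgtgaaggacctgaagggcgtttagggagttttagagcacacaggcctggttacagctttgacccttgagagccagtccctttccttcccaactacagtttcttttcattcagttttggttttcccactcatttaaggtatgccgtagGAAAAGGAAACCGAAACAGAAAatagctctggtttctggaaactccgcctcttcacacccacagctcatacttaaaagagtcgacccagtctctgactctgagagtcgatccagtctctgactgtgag
Ifit1: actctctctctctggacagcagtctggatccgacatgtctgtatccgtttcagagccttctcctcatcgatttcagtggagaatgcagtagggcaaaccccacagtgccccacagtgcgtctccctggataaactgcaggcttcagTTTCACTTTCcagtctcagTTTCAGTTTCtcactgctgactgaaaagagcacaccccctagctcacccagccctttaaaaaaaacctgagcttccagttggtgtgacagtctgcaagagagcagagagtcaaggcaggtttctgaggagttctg
The element was found in 13 of the 25 interferon-stimulated genes with a promoter in the table (52.0%), beside 3.99% of all 27025 genes there and 3.44% of all windows. A match is a description of letters and shows no binding.

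Class I antigen presentation, which interferons also raise, was higher throughout. All 13 measured genes of this list were higher, with a median log2 fold change of 0.61. Nlrc5, the transactivator of class I genes, had 88.6, 86.1 and 93.3 CPM in young and 207, 192 and 214 CPM in uridine libraries (log2 fold change 1.19, adjusted p = 5.13e-24). B2m, the light chain of class I molecules, had a log2 change of 0.90 and H2-K1, a classical heavy chain, 0.73. The aged minus young median of the list was 0.60, with 11 of 13 genes higher. Members differed between the contrasts: Nlrc5 had an aged minus young log2 change of -0.0425.

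Class II presentation differed. The class II list, headed by genes such as H2-Ab1 and the invariant chain Cd74 that antigen-presenting cells express, had a median of 3.38 in aged minus young, with all 9 genes higher. In uridine libraries the median was -0.15: 1 gene was higher, 6 were lower, 2 were not called, and 7 were close to young. Cd74 had 249.7, 243 and 241 CPM in young, 4208, 3989 and 4142 CPM in aged and 266, 270.0 and 275 CPM in uridine libraries. H2-Ab1 had 105, 113 and 106 CPM in young, 1149, 1092 and 1136 CPM in aged and 91.5, 92.6 and 88.7 CPM in uridine libraries, the uridine libraries falling just under the young. Vehicle cultures had a median of 0.25.

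Enzymes of cholesterol synthesis were also higher as a group. Cells raise this pathway, from acetyl-CoA through mevalonate to lanosterol and cholesterol, through the transcription factor SREBP-2 when sterols run low. All 25 measured genes were higher, 23 of them by at least 1 on the log2 scale, with a median of 1.89. Hmgcs1, the cytosolic HMG-CoA synthase (ENSMUSG00000093930, chr13:119690379-119708260, plus strand), had 27.2, 29.9 and 27.2 CPM in young and 184, 181 and 185 CPM in uridine libraries (log2 fold change 2.70, SE 0.0489, adjusted p = 1.14e-32). Msmo1, the methylsterol monooxygenase, had 12.5, 11.4 and 11.2 CPM in young and 104, 111 and 104 CPM in uridine libraries, the largest change of the list at a log2 change of 3.17. Cyp51, lanosterol demethylase, had a log2 change of 2.68, Lss, lanosterol synthase, 2.52, and Idi1, isopentenyl diphosphate isomerase, 2.28. The smallest change was Ebp, a sterol isomerase, at a log2 change of 0.20, whose call was lost with upper quartile factors (adjusted p = 0.0625) and without uridine replicate 3 (adjusted p = 0.0611). Uncultured aged cells had a median of -0.0842 and vehicle cultures one of 2.35.

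The Hmgcs1 promoter is shown as the 1 of 17 cholesterol genes in the table (5.88%) that holds TCACCCCAC, a sterol regulatory element, a motif added after the design; 0.614% of all genes in the table hold it. It lies at chr13:119690101-119690400, plus strand, GRCm38.p6 from RefSeq, with the match in capitals.
Hmgcs1: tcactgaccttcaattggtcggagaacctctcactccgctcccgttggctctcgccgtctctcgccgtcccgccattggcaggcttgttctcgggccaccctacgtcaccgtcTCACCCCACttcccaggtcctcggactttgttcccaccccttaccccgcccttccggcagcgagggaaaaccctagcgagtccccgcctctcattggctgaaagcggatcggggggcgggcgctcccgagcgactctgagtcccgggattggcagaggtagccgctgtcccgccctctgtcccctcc

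Genes of fatty acid handling were mixed, with 15 of 23 higher, 6 lower and a median of 0.65. Lpl, lipoprotein lipase, which releases fatty acids from circulating triglyceride, had 7.15, 6.24 and 6.12 CPM in young and 150.2, 150.0 and 148 CPM in uridine libraries (log2 fold change 4.52). The desaturase Scd2 had a log2 change of 1.50, the lipid droplet coat Plin2 had a log2 change of 1.28 and the scavenger receptor Cd36 had a log2 change of 1.46. Cpt1a, the carnitine transferase that admits long-chain fatty acids to mitochondria, was close to young at a log2 change of 0.0438.

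Monocyte and macrophage genes were mostly higher. Of 23, 15 were higher, 5 lower and 3 not called, with a median of 0.73. Their summed level was 3683 to 3741 CPM in young, 5587 to 5680.5 CPM in uridine, 7887 to 7986 CPM in vehicle and 1973 to 2019.7 CPM in uncultured aged libraries. Gpnmb, given above, had the largest change at a log2 change of 9.52. Fcgr1, the high-affinity IgG receptor, had 1.05, 2.46 and 2.35 CPM in young and 57.6, 54.2 and 58.1 CPM in uridine libraries (log2 fold change 4.87). Msr1, a scavenger receptor, had a log2 change of 3.67, Adgre1, the F4/80 antigen, 2.32, and the cathepsin gene Ctss 2.23. Itgax and Fn1, the latter chosen after its values were seen, were lower at log2 changes of -1.03 and -1.49. The part of these transcripts in the other rises was not tested.

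Large single rises outside the lists included those of the 6 genes given here, which are not all of them. Saa3, an acute phase apolipoprotein, had 0.300, 0.274 and 0.219 CPM in young and 181, 186 and 176 CPM in uridine libraries (log2 fold change 9.38). Nos2, the inducible nitric oxide synthase, had a log2 change of 6.16, Clec4n, the Dectin-2 receptor, 5.87, C3ar1, the receptor for complement C3a, 5.35, and Ccl7, a monocyte chemokine, 5.41. Slc6a4, the serotonin transporter that platelets also use, had 0.150, 0.438 and 0.437 CPM in young and 94.6, 94.7 and 94.4 CPM in uridine libraries. In all 6 of these genes the vehicle cultures were further from young, with log2 fold changes against young of 10.35, 7.11, 6.81, 6.00, 5.84 and 8.78 in the order named.

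Lysosomal genes were higher in 25 of 28 cases, with 2 lower and a median of 0.51. Ctsb, cathepsin B, had 309, 311 and 319 CPM in young and 792, 781 and 795 CPM in uridine libraries (log2 fold change 1.33, adjusted p = 1.47e-33), without overlap. Grn, progranulin, had a log2 change of 1.38 and Ctsd, cathepsin D, 1.21. Of 9 iron genes, 4 were higher and 3 lower, beside 26.2% higher and 23.3% lower over all genes tested. Slc11a1, the phagosomal metal transporter, had a log2 change of 2.55 and Fth1, ferritin heavy chain, 1.16, whereas Slc40a1, the iron exporter ferroportin, had a log2 change of -0.90.

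Inflammatory mediators were split, 9 of 20 higher and 9 lower. Il1rn, the interleukin-1 receptor antagonist, had a log2 change of 3.35, and the chemokines Ccl5, Cxcl16 and Cxcl10 had log2 changes of 3.15, 2.83 and 2.77. Nfkbiz, an inducible regulator of NF-kappaB, had 288, 301 and 302 CPM in young and 142, 135 and 144 CPM in uridine libraries, a change of -1.08.

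All 17 measured megakaryocyte genes of 18 listed were higher, with a median of 2.21, and their summed level was 744 to 755 CPM in young and 1876 to 1893 CPM in uridine libraries. Megakaryocytes are the platelet-forming cells, and platelet-biased stem cells carry some of the same transcripts. Pf4, platelet factor 4 (ENSMUSG00000029373, chr5:90772435-90773383, plus strand), had 18.6, 14.4 and 16.2 CPM in young and 196, 192 and 185 CPM in uridine libraries (log2 fold change 3.54, SE 0.0580, adjusted p = 5.77e-34). Itgb3, the integrin beta 3 chain of the platelet fibrinogen receptor, had 34.6, 37.7 and 38.3 CPM in young and 268, 272 and 270.4 CPM in uridine libraries. Vwf, von Willebrand factor, had a log2 change of 2.32, and Selp, P-selectin, 2.63. Uncultured aged cells had a list median of -0.36, with 10 of 17 genes lower than young, and vehicle cultures one of 2.73. Fli1, a regulator of the lineage, was close to young at a log2 change of 0.27. The smallest change was that of Thbs1, at 0.11, with an adjusted p of 0.0496 that lay just under the threshold.

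**Figure D3:**
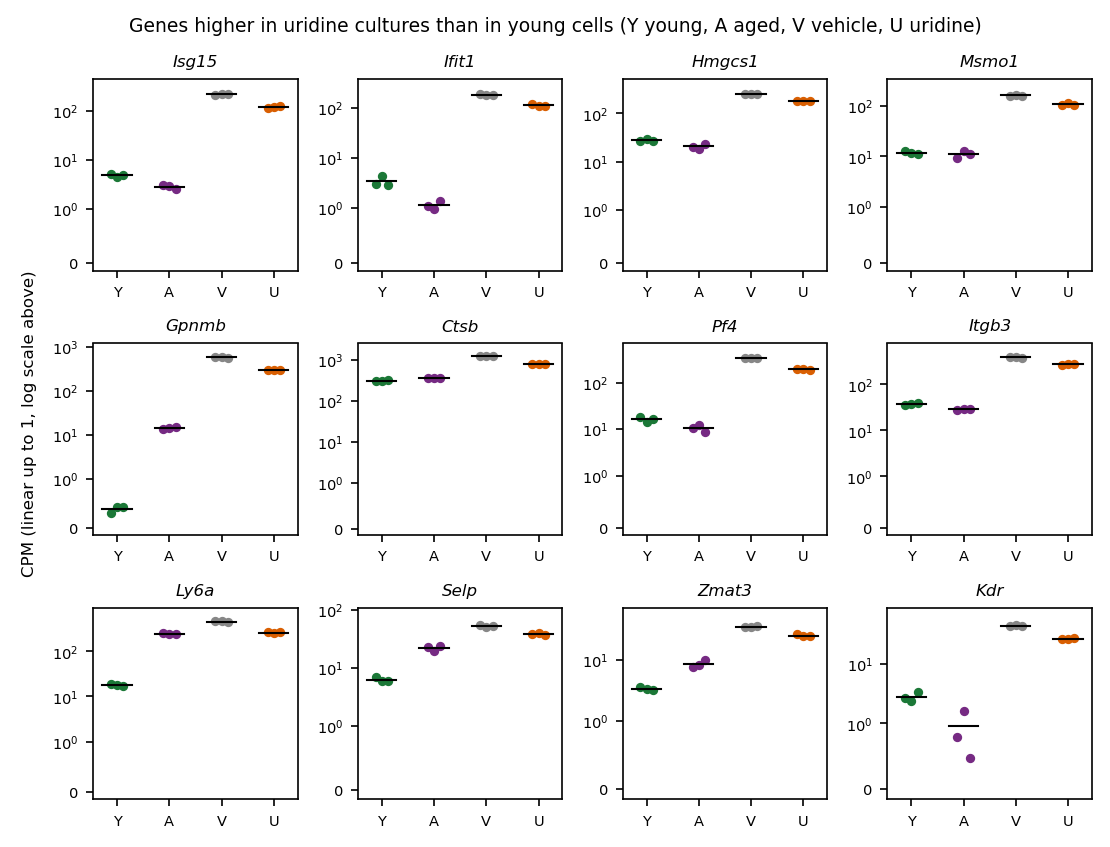
CPM per library of 12 genes that were higher in uridine-cultured aged than in young cells (linear scale to 1, log scale above). Points are libraries, bars are means of 3 libraries, and groups are young (Y), uncultured aged (A), vehicle (V) and uridine (U). In each panel the 3 uridine points lie above all young points and below all vehicle points.

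The plot of risen genes shows how narrow the spread within groups was beside the gaps between them. Ly6a, Selp, Zmat3, Gpnmb and Ctsb had uncultured aged levels above young, whereas Isg15, Ifit1, Hmgcs1, Msmo1, Pf4, Itgb3 and Kdr did not.

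Transcripts reported as raised in aged stem cells were higher in uridine libraries as well. Of 32 measured of 34 listed, 23 were higher, 2 lower and 7 not called, with a median of 1.24. In uncultured aged cells 29 were higher and 3 lower (Itgb3, Vwf and Fyb), with a median of 1.79. Vehicle cultures stood further from young than uridine cultures, with a median of 1.61. The list overlaps the megakaryocyte list in Itgb3, Selp and Vwf. Selp had 6.85, 5.91 and 5.85 CPM in young, 23.4, 19.4 and 23.6 CPM in aged and 37.9, 40.2 and 37.2 CPM in uridine libraries. Clu, the chaperone clusterin, had log2 changes of 1.86 with age and 2.34 in uridine, and Ehd3, an endocytic ATPase gene, had log2 changes of 2.12 and 2.91. Aldh1a1, a retinaldehyde dehydrogenase gene, had log2 changes of 0.72 and 1.18. Gpr183, an oxysterol receptor gene, and Mt1, a metallothionein gene, were lower in uridine at log2 changes of -0.58 and -1.07, and Mllt3 was not called at a log2 change of -0.21, though 8 alternatives call it.

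Stem cell identity genes were mostly near the young level or above it, with 16 of 27 higher, 2 lower, 9 not called and 13 close to young. These counts stand beside 26.2% higher, 23.3% lower and 44.3% close to young over all genes tested. Ly6a, which encodes Sca-1, stood apart with 18.8, 17.6 and 16.9 CPM in young, 252, 242 and 247 CPM in aged, 458, 465 and 441 CPM in vehicle and 265, 249.7 and 261 CPM in uridine libraries, and Ly6a is also an interferon-inducible gene. Procr, the endothelial protein C receptor of stem cells, had 2.90, 2.68 and 3.06 CPM in young and 11.1, 9.41 and 9.60 CPM in uridine libraries (log2 fold change 1.80, adjusted p = 1.02e-12). Mecom, a transcription factor needed for self-renewal, had a log2 change of 0.84. Hlf, another stem cell regulator, had a log2 change of -0.0867 and Fgd5 -0.0265, and neither was called. Robo4, an endothelial and stem cell receptor, was lower at a log2 change of -0.85.

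Of the 17 p53 target genes, 14 were higher and 2 lower, with a median of 0.79. Zmat3, an RNA-binding protein gene, had 3.60, 3.29 and 3.23 CPM in young and 26.1, 24.0 and 24.0 CPM in uridine libraries, and Phlda3, an AKT inhibitor gene, had a log2 change of 2.17. Ccng1, cyclin G1, had a log2 change of 1.31 and Bax, the pro-apoptotic BCL2 relative, 1.03. Cdkn1a, which encodes the cell cycle inhibitor p21, had 101, 100.4 and 97.3 CPM in young and 116, 115 and 112 CPM in uridine libraries and was close to young at a log2 change of 0.20. Mdm2, the ubiquitin ligase that limits p53, was not called at a log2 change of 0.0576.

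Among NRF2 targets, the antioxidant genes that respond to electrophiles, 11 of 17 were higher and 5 lower, with 8 close to young. Over all genes tested, 26.2% were higher and 23.3% lower. Tkt, transketolase, was among the lower ones, at a log2 change of -0.11. Srxn1, sulfiredoxin, had a log2 fold change of 3.16. Slc7a11, the cystine importer that is also an ATF4 target, had a log2 change of 2.99, and Hmox1, haem oxygenase, 2.04. In the ATF4 list 14 of 22 were higher and 4 lower, with 11 close to young, beside 44.3% of all genes. Sesn2 had a log2 change of 1.29 and Ddit4, an mTORC1 inhibitor gene, -0.89.

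On the lower side, immediate early genes moved as a block. These are transcribed within minutes of growth factor, cytokine or stress signals through SRF, CREB and AP-1. Of 25, 24 were lower, 20 of them by at least 1 on the log2 scale (beside 5.15% of all genes), none was higher, and the median was -1.17. Fos (ENSMUSG00000021250, chr12:85473890-85477273, plus strand) had 1535, 1562 and 1508 CPM in young, 2247, 2293 and 2277 CPM in aged, 63.5, 57.1 and 61.9 CPM in vehicle and 465, 479.8 and 472 CPM in uridine libraries. The uridine libraries lay below all young ones and above all vehicle ones (log2 fold change against young -1.70, SE 0.0234, adjusted p = 2.10e-36). Fosb had a log2 change of -1.51, Jun -1.55, Klf2 -1.67 and Nr4a1 -1.50. Nr4a3 was not called, at a log2 change of -0.23. The summed level of the list was 13065 to 13124 CPM in young, 17282 to 17502 CPM in aged, 4913 to 4919.9 CPM in uridine and 1058 to 1101 CPM in vehicle libraries.

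The promoters of Zfp36, which encodes an mRNA-destabilising protein, and Dusp1, a MAP kinase phosphatase gene, are shown as examples of the elements known for this class. Capitals mark a CArG box, the SRF element, in Zfp36 (chr7:28379179-28379478, minus strand) and TGACGTCA, the cAMP response element, in Dusp1 (chr17:26508423-26508722, minus strand), from RefSeq on GRCm38.p6.
Zfp36: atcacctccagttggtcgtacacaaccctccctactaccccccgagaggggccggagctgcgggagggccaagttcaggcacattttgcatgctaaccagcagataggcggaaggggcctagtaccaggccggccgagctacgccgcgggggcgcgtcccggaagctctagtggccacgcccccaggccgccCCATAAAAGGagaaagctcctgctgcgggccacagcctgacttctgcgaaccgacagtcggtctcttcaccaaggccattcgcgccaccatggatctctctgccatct
Dusp1: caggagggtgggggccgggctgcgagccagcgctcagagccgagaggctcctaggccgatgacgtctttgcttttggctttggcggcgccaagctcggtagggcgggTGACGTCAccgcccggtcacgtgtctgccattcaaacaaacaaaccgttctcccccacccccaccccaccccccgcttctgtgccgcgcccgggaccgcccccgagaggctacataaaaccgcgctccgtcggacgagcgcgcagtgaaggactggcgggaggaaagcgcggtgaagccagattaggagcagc
Zfp36 had 921, 941 and 944 CPM in young and 334, 346 and 339 CPM in uridine libraries, and Dusp1 555, 558 and 567 CPM in young and 186, 191 and 188 CPM in uridine libraries. On either strand, TGACGTCA was found in 3 of the 21 immediate early genes in the table (14.3%) beside 2.03% of all genes, and the CArG box in 2 of 21 (9.52%) beside 1.81%. TGACTCA, the AP-1 site, was in 1 of 21 (4.76%) beside 5.95%.

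Feedback genes of the ERK pathway were mixed, with Dusp2, Dusp5 and Spry2 lower (-1.30, -1.09 and -0.99) and Dusp4 higher (1.37). Cytokine feedback genes were also split: Osm, oncostatin M, had a log2 change of -1.48 and Socs3 -0.99, whereas the kinase gene Pim2 had a log2 change of 1.30 and Ccnd1, cyclin D1, 1.05. Myc was close to young at a log2 change of 0.16.

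Erythroid genes were lower in 23 of 25 cases, with none higher and a median of -1.30. Ermap, an erythroid membrane protein (ENSMUSG00000028644, chr4:119175457-119190011, minus strand), had 85.9, 86.0 and 92.5 CPM in young, 27.9, 25.9 and 30.4 CPM in aged and 27.7, 27.4 and 30.4 CPM in uridine libraries, a log2 fold change of -1.63 (SE 0.0710, adjusted p = 8.54e-21). Vehicle libraries held 2 counts of Ermap in all, against 1711 in the uridine libraries. Car1, carbonic anhydrase 1, had 122, 119 and 122 CPM in young and 41.6, 39.6 and 40.1 CPM in uridine libraries. The globin genes Hba-a1 and Hbb-bs had log2 changes of -1.60 and -1.69, and their near-identical copies make each count uncertain. Tfrc, the transferrin receptor that all dividing cells use, was close to young at a log2 change of -0.14. The list was lower with age too, in 23 of 25 genes, with an aged minus young median of -1.54, and its summed level was 1548 to 1566 CPM in young and 859.8 to 869 CPM in uridine libraries.

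Mature neutrophil genes were lower in 14 of 18 cases and higher in 2, with a median of -1.30. Their summed level was 6459 to 6650.2 CPM in young, 2637 to 2717 CPM in uridine, 814 to 859.9 CPM in aged and 753 to 763 CPM in vehicle libraries. Ltf, the secondary granule protein lactoferrin, had 1015, 1026 and 1031 CPM in young, 59.6, 56.4 and 56.0 CPM in aged and 356, 337 and 359.9 CPM in uridine libraries. Ngp, a neutrophil granule protein, had a log2 change of -1.52, Camp, a cathelicidin, -1.49, and Mmp9, gelatinase B, -1.73. Ly6g, the surface antigen of neutrophils, had 11.7, 11.8 and 13.5 CPM in young and 3.79, 3.12 and 4.28 CPM in uridine libraries, while vehicle libraries held 0 counts, so uridine was at least 68.4-fold above vehicle. Csf3r, the G-CSF receptor shared with progenitors, was close to young at a log2 change of 0.22.

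Granulocyte progenitor genes were lower by less: 10 of 14 were lower and 3 higher, with a median of -0.43 and 1 lower by at least 1. Elane, neutrophil elastase, had 1372, 1399.9 and 1387 CPM in young, 2773, 2736 and 2876 CPM in aged and 806, 811 and 764 CPM in uridine libraries. Cebpe, a factor of granule formation, had a log2 change of -0.88 and Ctsg, cathepsin G, -0.25. Uncultured aged cells differed the other way, with 11 of 14 higher than young.

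Genes of basophils, mast cells and eosinophils were lower in 13 of 18 cases and higher in 2, with a median of -1.01. Prss34, a basophil protease, had 708, 678 and 683 CPM in young, 75.8, 68.7 and 72.5 CPM in aged and 281, 290.5 and 287 CPM in uridine libraries. Ear2 and Ear6, eosinophil ribonucleases with near copies, had log2 changes of -1.63 and -1.61. Hdc, histidine decarboxylase, had a log2 change of -1.03, and Cpa3, a mast cell carboxypeptidase also found in progenitors, was close to young at a log2 change of 0.0747. The summed level was 1708 to 1752 CPM in young and 887 to 889 CPM in uridine libraries.

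B-lineage genes were lower in 16 of 19 cases and higher in 1, Cd74, with a median of -1.41. Pax5, the commitment factor of B cells (ENSMUSG00000014030, chr4:44524757-44710487, minus strand), had 121, 125 and 129 CPM in young, 181, 168 and 185 CPM in aged and 39.1, 42.4 and 48.3 CPM in uridine libraries (log2 fold change -1.53, SE 0.0588, adjusted p = 1.67e-22). Vehicle libraries had 3.26, 3.46 and 2.03 CPM. Ebf1, a partner of Pax5, had a log2 change of -1.57, Rag1, the antigen receptor recombinase, -1.64, and Vpreb1, a surrogate light chain gene, -1.53. With age the list moved up, 13 of 19 genes higher and 6 lower, with a median of 1.61. Among the lower ones was Igll1, which is specific to early B cells, at a log2 change of -4.78.

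Plasma cell genes, all 14 of them higher with age (median 2.33), had a median of -0.0525 in uridine libraries, with 4 higher, 5 lower and 5 not called. Their summed level was 27037 to 27278 CPM in aged libraries, 1092 to 1106 CPM in young and 1199.6 to 1241 CPM in uridine libraries. Most of the aged sum was 1 gene, Jchain, the joining chain of secreted antibodies, at 23598, 23350.3 and 23474 CPM. Xbp1, the secretory regulator, was close to young at a log2 change of 0.0299. In vehicle cultures the list median against young was 0.0888.

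The lymphoid-primed progenitor list was lower in 10 of 14 genes and higher in 3. Dntt, the terminal transferase of lymphoid progenitors, had 282, 284 and 279 CPM in young, 56.8, 58.2 and 55.9 CPM in aged and 93.6, 100.1 and 101 CPM in uridine libraries. Flt3, the cytokine receptor of lymphoid-primed cells, had 191, 186 and 182 CPM in young and 121, 122 and 125 CPM in uridine libraries, a log2 fold change of -0.60. Satb1, a chromatin organiser of the lymphoid fate, had a log2 change of -0.83 and Notch1 -0.72. T and NK cell genes were lower in 11 of 22 cases and higher in 3, at low levels: Cd4 had 9.19, 9.20 and 8.04 CPM in young and 3.74, 3.17 and 3.33 CPM in uridine libraries. Dendritic cell genes were lower in 6 of 12 cases, among them the regulator Irf8 at a log2 change of -0.74. The 2 higher ones were Klrk1 and the regulator Tcf4, at log2 changes of 0.32 and 0.12. Over all genes tested, 23.3% were lower and 26.2% higher.

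Stroma and endothelium, which are not haematopoietic, were represented by 22 measured genes of 24 listed, 15 lower and 3 higher, with a median of -1.40. Their summed level was 860.5 to 895 CPM in young, 425 to 438 CPM in uridine and 250.3 to 256 CPM in vehicle libraries. Col1a2 had 208, 212 and 204 CPM in young and 56.4, 62.5 and 58.4 CPM in uridine libraries, and Col5a1 had a log2 change of -1.66. Kdr, the VEGF receptor, went the other way with 2.70, 2.35 and 3.34 CPM in young and 26.2, 26.4 and 26.8 CPM in uridine libraries, as did Spp1, osteopontin, at a log2 change of 1.75. Pecam1, an adhesion molecule of endothelium and of blood cells, was close to young at a log2 change of -0.19.

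**Figure D4:**
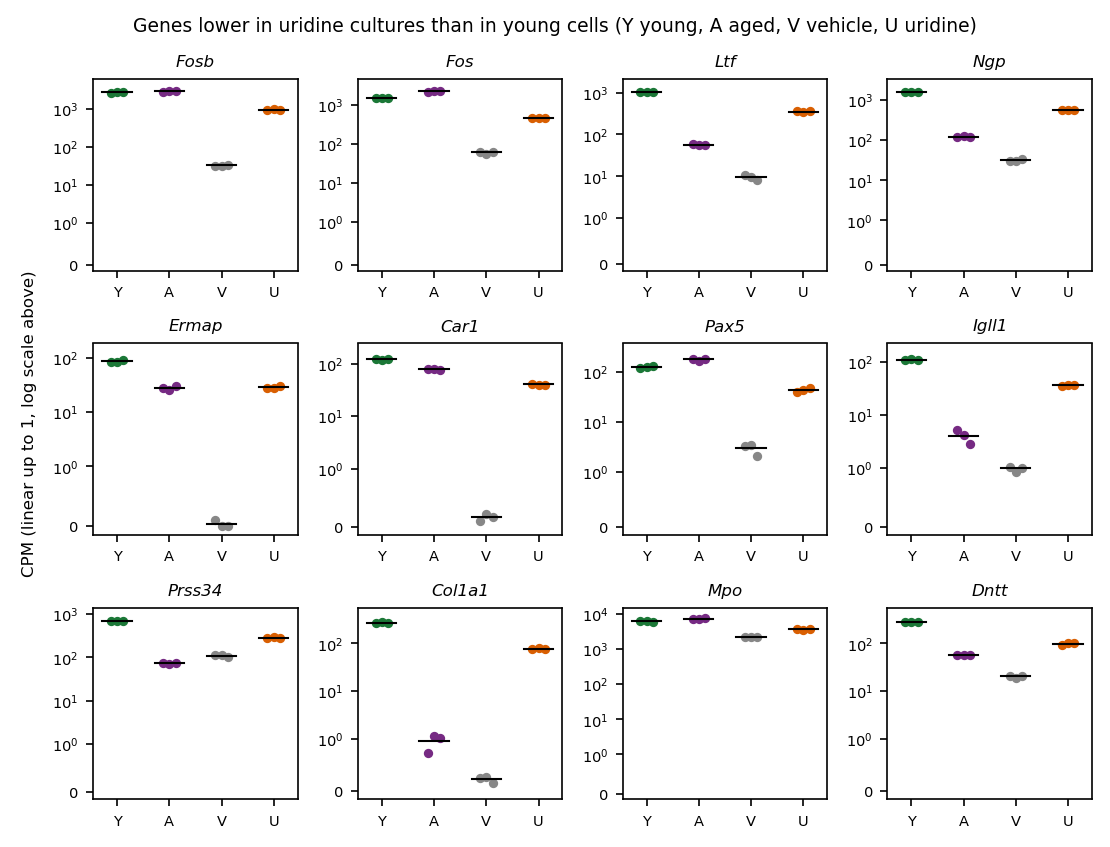
CPM per library of 12 genes that were lower in uridine-cultured aged than in young cells (linear scale to 1, log scale above). Points are libraries, bars are means of 3 libraries, and groups are young (Y), uncultured aged (A), vehicle (V) and uridine (U). In each panel the 3 uridine points lie below all young points and above all vehicle points.

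The plot of lowered genes sets lineages side by side: Fos, Ltf, Ermap, Pax5, Prss34 and Col1a1 belong to unlike cell types, and their uridine levels stood at 0.308, 0.343, 0.324, 0.346, 0.415 and 0.282 times the young level in that order. Medians of mature cell lists went both ways, from -1.41 for B-lineage to 2.21 for megakaryocyte genes, beside -0.00395 over all genes. The part of mature cell markers in the counts of lower genes was not tested.

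Cell cycle genes were slightly lower: of 39 S-phase genes 29 were lower and 2 higher, with a median of -0.24 and 35 close to young, and of 48 G2 and M genes 28 were lower and 7 higher, with a median of -0.17 and 41 close to young. Uncultured aged cells had medians of -0.83 and -0.77, with 38 of 39 and 48 of 48 genes lower than young. In vehicle cultures the medians against young were -0.33 and -0.19, so cultures without uridine were also near young. Mcm5, a subunit of the replicative helicase, had 528, 506 and 519 CPM in young, 267, 262 and 270.1 CPM in aged and 399, 408 and 404 CPM in uridine libraries. Top2a, topoisomerase II alpha, had log2 changes of -0.26 in uridine and -1.08 with age. Cdkn1b, which encodes the inhibitor p27, was lower at a log2 change of -0.69, and Lmnb1, lamin B1, at a log2 change of -0.53.

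Energy metabolism differed little. Of 58 nuclear genes of oxidative phosphorylation, 17 were lower, 41 were not called and 56 were close to young, with a median of -0.0578. The share that was lower, 17 of 58, stands beside 23.3% of all genes. Of 13 mitochondrial genes 4 were higher, beside 26.2% of all genes, led by mt-Nd5 at a log2 change of 0.18. Of 18 glycolysis genes 11 were higher and 2 lower, with 15 close to young: Hk2, hexokinase 2, had a log2 change of 0.41 and Gpi1, glucose phosphate isomerase, -0.30. Ribosomal protein genes were lower in 72 of 79 cases with a median of -0.20, a sign that held under each scaling tried, with 73 close to young. All 28 ribosome biogenesis genes were close to young. In the unfolded protein response list 13 of 22 were lower and 6 higher, with 16 close to young. Hspa5, the endoplasmic reticulum chaperone BiP, had a log2 change of -0.54 and Dnajb9 -0.91.

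Genes that take up and use uridine differed in both directions. Of 31 measured pyrimidine genes of 35 listed, 7 were higher, 14 lower, 10 not called and 22 close to young, with a median of -0.13. Over all genes tested, 26.2% were higher, 23.3% lower and 44.3% close to young. Uck2, a uridine kinase that starts the salvage route, had 266, 266 and 283 CPM in young and 262, 266 and 258 CPM in uridine libraries and was not called (log2 fold change -0.0515), though 3 alternatives call it lower. The other kinase, Uck1, was lower at a log2 change of -0.28. The de novo enzymes Cad, Dhodh and Umps had log2 changes of -0.18, -0.16 and -0.15, with Dhodh not called. Upp1, uridine phosphorylase, which splits uridine into uracil and ribose phosphate, had 1.40, 0.383 and 0.547 CPM in young, 7.68, 6.76 and 9.04 CPM in vehicle and 3.55, 4.35 and 3.98 CPM in uridine libraries (log2 fold change against young 2.31, adjusted p = 7.22e-08). Nt5e, the surface nucleotidase CD73, had a log2 change of 1.89 and Samhd1, a dNTP hydrolase that interferons can raise, 1.05. Upb1, a uracil catabolic enzyme, had a log2 change of -1.51.

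Of the 5 measured nucleoside transporters of 7 listed, Slc29a1, the main equilibrative transporter, had 113, 103 and 103 CPM in young and 75.6, 74.7 and 77.8 CPM in uridine libraries and was lower (log2 fold change -0.49, adjusted p = 1.80e-10). Slc28a2, a concentrative transporter, was lower at a log2 change of -0.24, and Slc29a3, the lysosomal member, was higher at a log2 change of 0.18. Slc29a2 and Slc29a4 were not called. Of 15 genes that make UDP-sugars and hexosamines, 13 were close to young, beside 44.3% of all genes. Gfpt1, the entry enzyme of the hexosamine route, was among those 13 at a log2 change of 0.38. Ogt, the O-GlcNAc transferase, was not, at a log2 change of 0.63.

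Cytokine receptors and adhesion genes held several larger differences. Of 18 growth factor receptors 12 were higher and 5 lower, beside 26.2% higher and 23.3% lower over all genes tested. The shared beta chain Csf2rb2 had 30.9, 33.5 and 30.6 CPM in young and 102, 106 and 111 CPM in uridine libraries. Il1r1 had a log2 change of 1.74 and Il6st, which encodes gp130, 1.15. Itga6, the laminin receptor chain, had a log2 change of 1.47, Cd9, a tetraspanin gene, 1.21, and Cxcr4, the marrow homing receptor, -0.73. Among 17 chromatin regulators 13 were close to young, beside 44.3% of all genes. Kdm6b, a histone demethylase gene, had a log2 change of -0.88 and Ezh2, the Polycomb methyltransferase, -0.55.

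**Figure D5:**
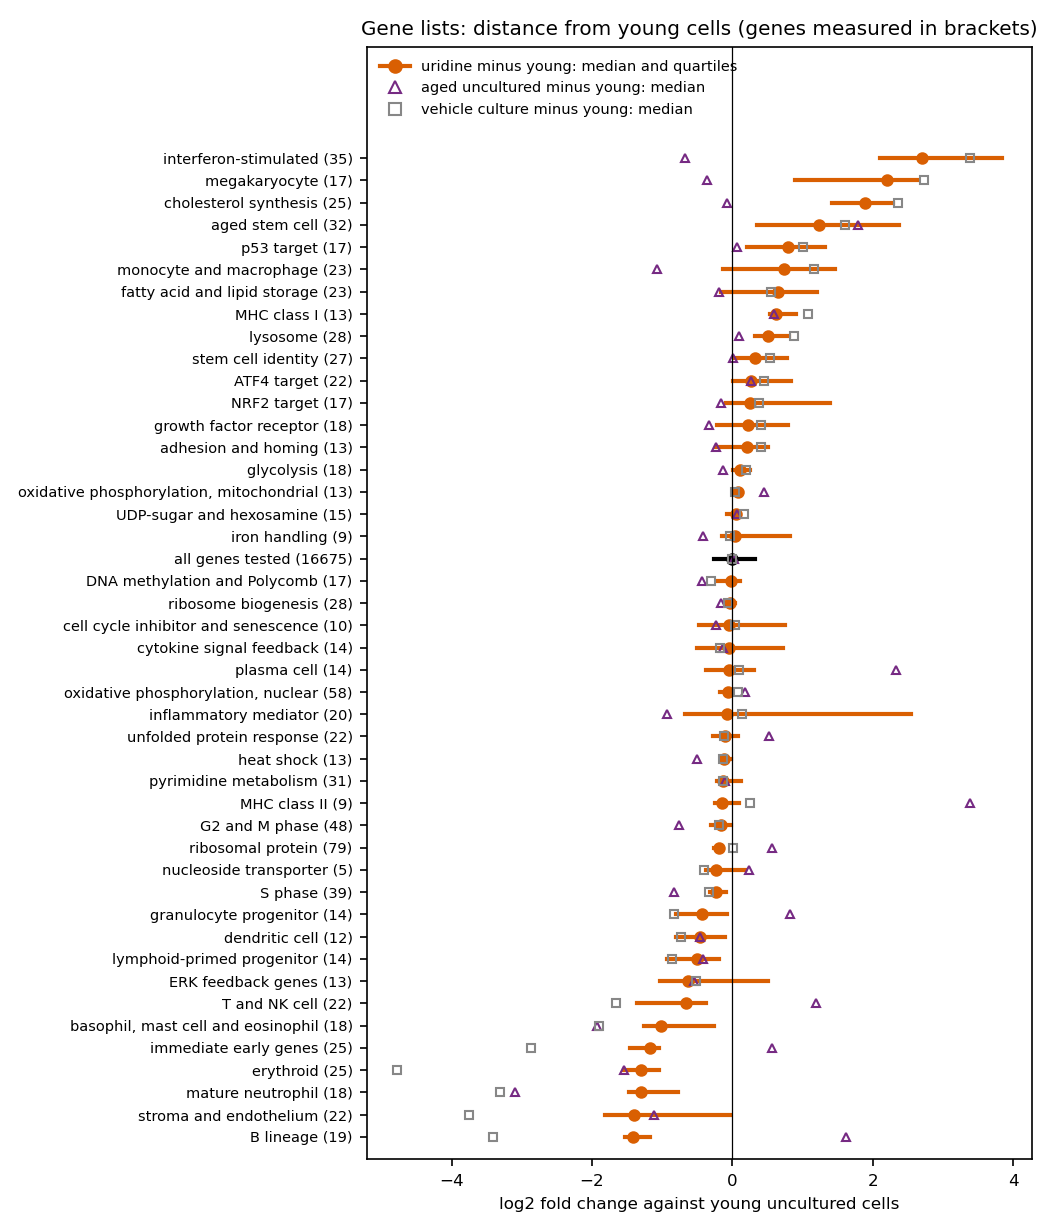
Median log2 fold change against young uncultured cells for each gene list and for all 16675 genes tested (black). Circles with bars are medians and quartiles of uridine minus young, triangles medians of uncultured aged minus young and squares medians of vehicle minus young; numbers of genes stand in brackets. Interferon-stimulated, megakaryocyte and cholesterol genes lie highest and B-lineage, stroma and neutrophil genes lowest.

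The plot of list medians sets the whole comparison out. Where a list lay far from young in vehicle cultures, the uridine median was on the same side and nearer to young, as for interferon-stimulated genes (2.70 beside 3.38) and erythroid genes (-1.30 beside -4.77). Where the large difference was between aged and young uncultured cells alone, as for plasma cell and class II genes, the uridine median was near 0. Xist, the only sex-linked gene measured in the list, had 1625, 1684 and 1687 CPM in young, 802, 863 and 824 CPM in aged and 1929.7, 1956 and 2023 CPM in uridine libraries and was close to young at a log2 change of 0.24.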

How the data were processed

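Poly-A RNA was sequenced as paired 150 bp reads, per the labels' protocols. The submitters' processing notes name HISAT2 2.0.5 and the mm10 build. The authors deposited raw counts for 54532 Ensembl gene IDs in 1 table. How reads were counted, on which annotation and whether by strand, is not given in the sources used here; overlapping and antisense genes are therefore uncertain. GENCODE M21 (GRCm38) gave names, biotypes and coordinates for 54495 IDs. The other 37 IDs held at most 0.00589% of a library's counts. Groups came from the sample titles.

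Genes were kept with filterByExpr, scaled with TMM factors and fitted with 1 mean per group over all 12 libraries by edgeR 4.0.16 in R 4.3.3 (quasi-likelihood, 8 residual and 26.5 prior degrees of freedom). All p-values are from its F-test with Benjamini-Hochberg adjustment over the 16675 genes tested, and a call is an adjusted p under 0.05. Each CPM is a count relative to the scaled library size (edgeR's cpm), and SE is the standard error of a log2 fold change. Genes are called close to young where the 95% interval lies inside a margin of 0.5. Lists are described by counts and medians, with no set test. The analysis was tested on simulated data.

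Genes were named by rule: the 15 largest changes in each direction among protein-coding genes with at least 5 CPM and no overlap of groups, up to 6 called and 2 close members of each list, the 10 largest age differences in each class, and any member of the lists of immediate early, stem cell, pyrimidine, transporter and sex-linked genes. The members and lists were chosen with earlier results of these data known. The weighting of group means and the search for the sterol element were added after the data were seen. Alternatives were DESeq2 1.42.0, limma voom (limma 3.58.1), 2 other scalings, 2 other filters, only the compared libraries, a block for the replicate number, only protein-coding genes, no immunoglobulin genes, an adjusted p of 0.01, a margin of 0.32 and leaving out each library.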

Additional observations from a re-analysis of the deposited data

How the results depend on the processing

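Leaving out 1 library at a time gave 4029 to 4108 genes higher and 3455 to 3520 lower than young, 1306 to 1346 and 765 to 821 with a change of at least 1, 1508 to 1695 and 1693 to 1910 age differences that remained higher and lower, and 7082 to 7149 genes close to young. Those 7 counts stayed within 1.5 times under the alternatives run, except that 4814 genes were close to young when the margin was narrowed to 0.32. The share of calls that were higher was 52.9%, and 46.7% with DESeq2, 46.3% with DESeq2 size factors and 43.5% with upper quartile factors, which moved the median over all genes by less than 0.1. Of 444 genes that could be named, 32 lost their call under at least 1 alternative, 15 gained one, and mt-Cytb changed sign with upper quartile factors (-0.0489, adjusted p = 0.0287). Replicate numbers did not pair the libraries: deviations of same-numbered uridine and young libraries correlated at 0.0144, 0.0133 and 0.00764, and with the replicate number as a block 4312 genes were higher and 3819 lower. Medians of 5 lists near 0 changed sign under some settings (DNA methylation and Polycomb, UDP-sugar, cell cycle inhibitor, cytokine feedback and iron handling), so no direction is given for them. Depth limits genes at few counts: where a group of 3 libraries held 0 counts, the limit was 3 counts. The cause of these changes was not tested.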

Other observations

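The uridine level of most genes lay between the young and vehicle levels, as it did for 8718 of 11853 genes with at least 5 CPM in some group (73.6%). The genes in this paragraph lay outside both and were chosen after their values were seen. Zfp871, a zinc finger gene, had 52.5, 51.1 and 53.4 CPM in young, 40.3, 41.8 and 39.4 CPM in vehicle and 61.3, 67.3 and 63.3 CPM in uridine libraries (log2 fold change against young 0.29, adjusted p = 8.43e-05). Hipk2, a nuclear kinase gene, had 58.0, 59.8 and 64.1 CPM in young, 48.1, 51.5 and 52.6 CPM in vehicle and 66.9, 70.8 and 71.4 CPM in uridine libraries (0.20, adjusted p = 0.00625). The uridine libraries were the highest of these 3 groups for both. On the low side, Rps29, a small ribosomal protein gene with many processed copies in the genome, had 122, 120.3 and 169.7 CPM in young, 140.4, 133 and 177 CPM in vehicle and 109, 101 and 93.2 CPM in uridine libraries. Sdc1, the plasma cell and epithelial proteoglycan CD138, had 23.7, 22.4 and 21.7 CPM in young, 22.3, 21.1 and 20.8 CPM in vehicle and 14.6, 19.3 and 17.1 CPM in uridine libraries, the lowest of the 3 (log2 fold change against young -0.42, adjusted p = 1.23e-05). Gapdh, whose reads are hard to assign because of its pseudogenes, had 105, 33.8 and 30.7 CPM in young and 26.8, 27.9 and 30.6 CPM in uridine libraries and was not called.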
